A study of Mus musculus with 12 samples.

Results

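The genes described are 10 immediate-early response genes measured in the adrenal cortex of mice: Fos, Fosb, Jun and Junb, Egr1, Egr2 and Egr3, and Nr4a1, Nr4a2 and Nr4a3. They were chosen by name and not by a threshold on their values, but with earlier results of these data known. They make up 10 of the 49585 genes counted. All 10 were matched to 1 gene identifier each, and all 10 passed the filter on low counts in every comparison. RNA was sequenced from the adrenal cortex of 12 mice, with 4 mice on a low-fat diet (LFD, called normal diet in the labels), 4 on a high-fat diet (HFD) and 4 on a HFD to which icosapent ethyl, the ethyl ester of the n-3 fatty acid eicosapentaenoic acid sold as Vascepa, was added. Feeding lasted 20 weeks, and icosapent ethyl was given in the last 10 weeks. The labels give the genotype Fads2-/- for all 12 mice, whereas the methods of the study describe male wild-type C57BL/6J mice that started the diets at 6 weeks of age. Fads2 RNA was present in every mouse, at 452 to 2182 CPM (counts per 1000000 counts of the library). By the methods of the study, blood was taken retroorbitally at the end of the experiment and the mice were killed by cervical dislocation. The cortex was separated from the medulla by dissection. Each library was 1 mouse.

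Immediate-early genes are transcribed within minutes of a hormone, growth factor or stress signal, from transcription factors that are already in the cell, and most of their transcripts are short-lived. FOS and JUN proteins pair to form the transcription factor AP-1, EGR proteins are zinc finger factors that bind GC-rich sites, and NR4A proteins are orphan nuclear receptors that act without a known natural ligand. In the adrenal cortex, adrenocorticotropic hormone (ACTH) acts through cyclic AMP, protein kinase A and the factor CREB, angiotensin II acts through calcium, and both signals are known to induce genes of these families, with NR4A proteins acting on promoters of steroidogenic genes.

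The start-site regions of 5 of the genes are shown because they come from the sets of genes that varied together across the mice. The 250 bases before a start site were read from the RefSeq promoter table (GRCm38.p6), which held 8 of the 10 genes (not Egr1 and Egr3). Positions are counted back from the start site, with -1 as the last base before it. Capitals mark matches, on either strand, to the TATA box (TATAAA), the cAMP response element (TGACGTCA), the AP-1 site (TGANTCA), the CArG box bound by serum response factor, the EGR site (GCGNGGGCG), the NR4A site (AAAGGTCA) and the core of the cAMP response element (TGACG). The core lies inside the full element, and was added after the sequences had been seen. The Fos, Junb and Nr4a2 regions lie upstream of the annotated gene, and those of Egr2 and Nr4a1 lie inside the gene, between exons of its longer transcripts. None of the 5 overlaps an annotated exon.
Fos, chr12:85473640-85473889, plus strand: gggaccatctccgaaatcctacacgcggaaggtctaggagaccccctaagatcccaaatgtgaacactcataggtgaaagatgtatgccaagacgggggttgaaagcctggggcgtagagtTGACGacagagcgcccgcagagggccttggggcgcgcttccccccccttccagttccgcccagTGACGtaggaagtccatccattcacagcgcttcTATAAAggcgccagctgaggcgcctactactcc
Junb, chr8:84978749-84978998, minus strand: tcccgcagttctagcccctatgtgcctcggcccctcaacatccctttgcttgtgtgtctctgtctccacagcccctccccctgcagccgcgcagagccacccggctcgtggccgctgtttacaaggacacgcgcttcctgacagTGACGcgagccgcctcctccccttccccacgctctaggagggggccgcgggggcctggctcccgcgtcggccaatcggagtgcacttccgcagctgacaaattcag
Egr2, chr10:67537619-67537868, plus strand: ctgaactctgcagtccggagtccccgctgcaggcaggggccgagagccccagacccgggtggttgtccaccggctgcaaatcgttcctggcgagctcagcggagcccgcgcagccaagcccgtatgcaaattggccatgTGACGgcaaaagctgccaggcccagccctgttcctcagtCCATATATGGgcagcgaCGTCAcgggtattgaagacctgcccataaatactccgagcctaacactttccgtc
Nr4a1, chr15:101266596-101266845, plus strand: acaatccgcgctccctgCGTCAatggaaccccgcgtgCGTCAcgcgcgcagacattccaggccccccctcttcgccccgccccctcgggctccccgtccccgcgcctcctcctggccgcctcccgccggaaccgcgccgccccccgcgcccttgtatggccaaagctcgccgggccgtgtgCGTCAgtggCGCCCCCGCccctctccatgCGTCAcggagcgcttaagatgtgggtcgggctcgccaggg
Nr4a2, chr2:57124004-57124253, minus strand: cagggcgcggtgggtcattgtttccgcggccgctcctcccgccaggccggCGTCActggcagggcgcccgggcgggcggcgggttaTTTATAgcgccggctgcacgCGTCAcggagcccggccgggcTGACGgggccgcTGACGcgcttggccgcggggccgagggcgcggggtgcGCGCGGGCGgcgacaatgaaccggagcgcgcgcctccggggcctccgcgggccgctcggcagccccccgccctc

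The Fos region held a TATA box at -33 to -28 and the core TGACG at -129 to -125 and -66 to -62. The Junb region held the core once, at -106 to -102. The Egr2 region held the CArG box at -72 to -63 between cores at -111 to -107 and -55 to -51. The Nr4a1, Nr4a2 and Nr4a3 regions each held the core 4 times, a number that 0.137% of the 32817 start-site regions of the table reached, whereas the core was present at least once in 17.7% of them. An EGR site was matched in Fosb, Nr4a1 and Nr4a2, against 4.70% of all regions, and a TATA box in Fos and Nr4a2, against 12.4%. The TATA letters of Nr4a2 lay at -164 to -159, on the opposite strand, unlike those of Fos. The CArG box was matched in Egr2 alone among the 8 genes, against 1.47%. The full cAMP response element (1.55% of all regions), the AP-1 site (6.75%) and the NR4A site (1.34%) were matched in none of the 8. The Jun region held no match to any of these motifs. A match describes letters in these 250 bases and is not a measurement of binding.

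Total counts ranged from 34785979 to 67295963 per mouse, and the lowest member count in any library was 13 (Egr3). Values are given as CPM after scaling of the library totals by the trimmed mean of M values (TMM). Markers of adrenocortical cells summed to 43754 to 102348 CPM over the mice, with none of the 10 markers at 0 in any group. Markers of chromaffin cells, the catecholamine-producing cells of the medulla, were also present in every mouse. LFD replicate 2 stood apart: it had the lowest value of Star, Cyp11a1, Cyp11b1 and Fads2 among the 12 mice, the highest value of the chromaffin marker Pnmt (578 CPM), the highest sum of Schwann cell markers (36.9 CPM) and a sum of chromaffin markers (16359 CPM) that only LFD replicate 6 exceeded. Fold changes without this mouse are given for most of the 10 genes in the comparisons with LFD. The part of these markers in its low values was not tested. In whole tissue, fewer expressing cells and less RNA per cell cannot be told apart.

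Levels differed widely between the genes. Per kilobase of exon, Nr4a1 had the highest median over the 12 mice (226 CPM per kb), followed by Jun (199.8 CPM per kb), whose lowest mouse (141 CPM per kb) lay above the highest mouse of Nr4a3 (105 CPM per kb), the next gene in the order of medians. Nr4a3 (37.0), Egr1 (35.4), Junb (29.7), Nr4a2 (29.4) and Fosb (20.1 CPM per kb) had medians far inside each other's ranges. Fos had a median of 5.81 CPM per kb but reached 181 CPM per kb, and Junb reached 641 CPM per kb. Egr2 (1.07 CPM per kb) and Egr3 (0.709 CPM per kb) were the lowest at the median, and their ranges overlapped. By the mean over the 12 mice, Junb (205 CPM per kb) came second, before Jun (195), and Fos (53.0) came before Nr4a3 (50.8) and Nr4a2 (50.2), so the order depended on a few mice with very high values. The plot of CPM by mouse shows these mice by replicate number.

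**Figure D1:**
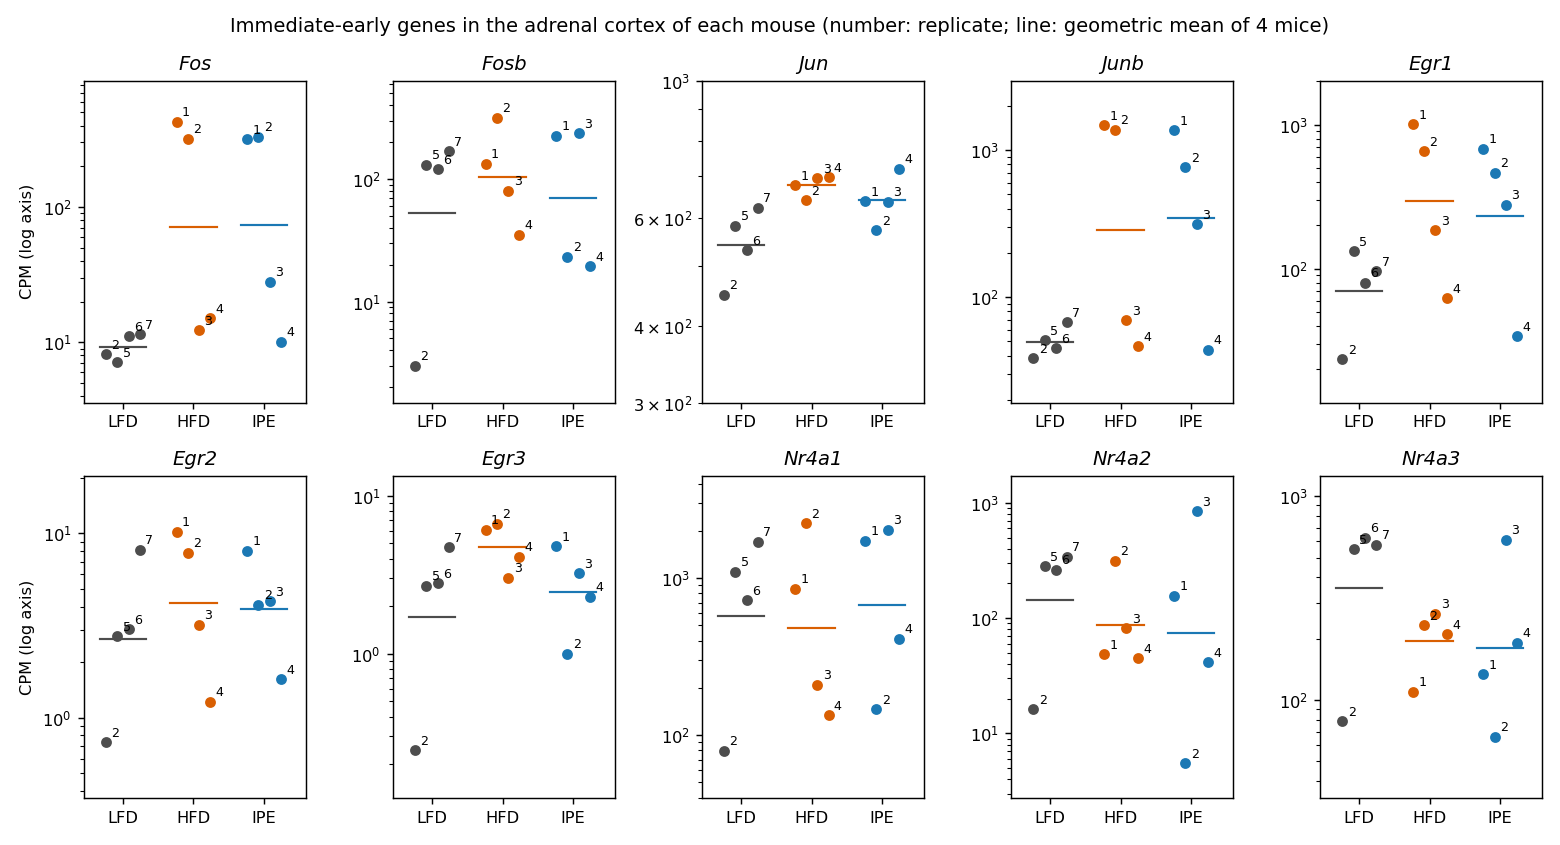
CPM of each of the 10 genes (log axes, a separate scale for each gene) in the 4 mice of each group (LFD, HFD, and HFD with icosapent ethyl, marked IPE), with the replicate number beside each point and the geometric mean of the group as a line. Fos and Junb are low in all LFD mice and split into high and low mice in both HFD groups, LFD replicate 2 is the lowest or close to the lowest in all genes, and Jun varies little.

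The comparison of HFD with LFD asked how diet-induced obesity alters the cortex. Fos, Junb and Egr1 had the highest fitted log2 fold changes of the 10 genes, 4.35, 3.88 and 2.53, and in each of them HFD replicates 1 and 2 were far above the LFD mice while replicate 4 was near them. Jun was slightly higher in every HFD mouse than in any LFD mouse. The 3 NR4A genes had fold changes below 0, and those of Fosb, Egr2 and Egr3 lay between 0.42 and 0.94 with standard errors of 0.64 to 0.95. In the quasi-likelihood test of edgeR, with p-values adjusted by the method of Benjamini and Hochberg, none of the 10 genes passed a limit of 0.05, beside 1.45% of the 15909 genes tested.

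Among the AP-1 genes, Fos, which encodes the inducible partner of JUN proteins, was measured at 8.20, 7.16, 11.1 and 11.4 CPM in LFD replicates 2, 5, 6 and 7. HFD replicates 1 to 4 had 426, 319, 12.3 and 15.0 CPM of Fos. The 2 groups did not overlap, but HFD replicate 3 lay only just above the highest LFD mouse, and the 4 HFD mice spanned a 34.6-fold range. The fitted log2 fold change of Fos, 4.35 (SE 1.12, adjusted p = 0.0760 by edgeR), ran from 3.60 without HFD replicate 1 to 4.75 without HFD replicate 3.

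Junb, a JUN family member that is itself strongly inducible, was at 38.3, 50.8, 45.1 and 67.3 CPM in the LFD mice. In HFD replicates 1 to 4 it was at 1475, 1373, 69.4 and 46.6 CPM. As for Fos, replicates 1 and 2 were high, whereas replicates 3 and 4 lay at the level of the LFD mice and the groups overlapped. Its log2 fold change was 3.88 (SE 1.07, adjusted p = 0.0860 by edgeR). Prdx2 overlaps Junb on the opposite strand, and the counting kept to 1 strand.

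Jun itself was at 449, 581, 531 and 622 CPM in the LFD mice and at 678, 641, 695 and 698 CPM in the HFD mice. All 4 HFD mice lay above all 4 LFD mice, in a range much narrower than that of any other of the 10 genes. On the log2 scale the fold change was 0.30 (SE 0.10, adjusted p = 0.118 by edgeR), and 0.23 without LFD replicate 2, the lowest mouse. The antisense gene Junos overlaps Jun on the opposite strand. Fosb, another inducible FOS gene, was at 2.99, 131, 120 and 168 CPM in the LFD mice and at 133, 316, 80.5 and 35.1 CPM in the HFD mice. LFD replicate 2 was far below all other mice, and the other LFD mice lay inside the wider range of the HFD mice. The log2 fold change of Fosb was 0.42 (SE 0.95, adjusted p = 0.820 by edgeR) and turned to -0.34 without HFD replicate 2, with 0.018 when LFD replicate 2 was left out.

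Of the EGR genes, Egr1, a growth factor and hormone responsive zinc finger factor, was at 23.5, 132, 80.1 and 96.2 CPM in the LFD mice. In the HFD mice it was at 1004, 656, 185 and 62.5 CPM. HFD replicates 1, 2 and 3 were above all LFD mice and replicate 4 was among them. On the log2 scale the fold change was 2.53 (SE 0.82, adjusted p = 0.116 by edgeR), and 2.22 without LFD replicate 2. Egr2 was much lower, with 0.733, 2.76, 3.03 and 8.15 CPM in the LFD mice and 10.2, 7.84, 3.19 and 1.22 CPM in the HFD mice, and the groups overlapped. Egr3 was at 0.244, 2.70, 2.78 and 4.73 CPM in the LFD mice and at 6.09, 6.64, 3.02 and 4.12 CPM in the HFD mice. Their log2 fold changes were 0.63 for Egr2 (SE 0.75, adjusted p = 0.644) and 0.94 for Egr3 (SE 0.64, adjusted p = 0.393 by edgeR), and without LFD replicate 2 they were 0.29 and 0.55.

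The NR4A genes went the other way at the group mean. Nr4a3 was at 78.6, 551, 626 and 577 CPM in the LFD mice and at 110, 232, 265 and 211 CPM in the HFD mice. LFD replicates 5, 6 and 7 lay above all HFD mice, and LFD replicate 2 lay below them. For Nr4a3 the fitted value on the log2 scale was -1.16 (SE 0.54, adjusted p = 0.218 by edgeR), and -1.51 without LFD replicate 2. Nr4a2 was at 16.2, 282, 263 and 340 CPM in the LFD mice and at 48.4, 314, 82.1 and 44.95 CPM in the HFD mice, with the same LFD mouse at the bottom and HFD replicate 2 among the high LFD mice. Its log2 fold change was -0.87 (SE 0.86, adjusted p = 0.566 by edgeR), and -1.26 without LFD replicate 2. Nr4a1, known to be induced by ACTH in adrenocortical cells, was at 79.7, 1098, 727 and 1705 CPM in the LFD mice and at 856, 2231, 210 and 134 CPM in the HFD mice. The groups covered the same range, and the fold change was -0.07 on the log2 scale (SE 0.97, adjusted p = 0.976 by edgeR), a value whose sign changed with the mouse left out (-0.45 when it was LFD replicate 2).

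At an unadjusted p below 0.05, 4 of the 10 genes passed (Fos, Junb, Egr1 and Jun), beside 24.8% of all genes tested. The groups did not overlap for 2 of the 10 (Fos and Jun), beside 13.5% of all genes. With DESeq2 in place of edgeR, 3 of the 10 genes were called, namely Fos (adjusted p = 0.00215), Junb (adjusted p = 0.00618) and Egr1 (adjusted p = 0.0390), and 5 of the 10 passed unadjusted. DESeq2 also called 12.3% of the 15923 genes it tested, 1965 genes where edgeR called 230. The median log2 fold change of the 10 genes was 0.53, and that of all genes was -0.01.

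Other early-response genes were examined in the same comparison. Of 40 genes on a list of further immediate-early factors, phosphatases and signal inhibitors, 39 were tested in HFD versus LFD. None was called by edgeR, 10 passed an unadjusted p below 0.05, and the median log2 fold change was 0.38. The lowest p-values belonged to Gadd45g, a growth arrest and stress response gene, Myc, Dusp4, a phosphatase of MAP kinases, and Btg2, an antiproliferative gene. Btg2 was at 48.1, 88.9, 67.4 and 115.7 CPM in the LFD mice and at 938, 893, 82.0 and 46.7 CPM in the HFD mice, and the fold change was 2.62 on the log2 scale (SE 0.90, adjusted p = 0.130 by edgeR). HFD replicates 1 and 2 were thus the high mice of Btg2, as for Fos and Junb. The log2 fold changes of Gadd45g, Myc and Dusp4 were 1.08 (SE 0.27, adjusted p = 0.0736), 0.99 (SE 0.27, adjusted p = 0.0841) and 1.16 (SE 0.35, adjusted p = 0.103 by edgeR), and the groups did not overlap for Dusp4. Of 23 genes that act upstream of the immediate-early genes, such as kinases, CREB family members and serum response factor cofactors, 1 was called. It was Camk2d, a calcium and calmodulin dependent kinase, whose fold change was 0.47 on the log2 scale (SE 0.09, adjusted p = 0.0435 by edgeR). This 1 of 23 stands beside 1.45% of all genes, and the call was lost when any 1 of 6 of the 8 mice was left out, since no gene of the table was then called.

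Markers of other cell types differed between the same groups. The 12 chromaffin markers summed to 5239 to 18553 CPM in LFD mice and 2565 to 8239 CPM in HFD mice. All 12 had fold changes below 0, 9 passed an unadjusted p below 0.05, and none was called by edgeR. The 8 macrophage markers summed to 426 to 618 CPM in LFD mice and 326 to 387 CPM in HFD mice, and 3 of them, Cd68, C1qa and C1qc, were called lower, while 2 of the 8 had fold changes above 0. These 3 calls were likewise lost when any 1 of 6 of the 8 mice was left out. Summed Schwann cell markers were 7.77 to 36.9 CPM in LFD mice and 4.79 to 14.2 CPM in HFD mice. Within the HFD group, chromaffin markers summed to 8239 and 2565 CPM in replicates 1 and 2, the mice with high Fos, and to 7149 and 2701 CPM in replicates 3 and 4. Adrenocortical markers summed to 57780 and 74148 CPM in replicates 1 and 2 and to 102348 and 98921 CPM in replicates 3 and 4. The part of these markers in the differences of the immediate-early genes was not tested.

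The comparison of icosapent ethyl with HFD asked whether the supplement altered the cortex of obese mice. No member was called by edgeR (0% of 15913 genes) or by DESeq2 (0.0268% of 26076 genes), and none passed an unadjusted p below 0.05, beside 1.39% of all genes. No member separated the 2 groups, beside 1.14% of all genes. Fos was at 316, 331, 28.1 and 10.1 CPM in icosapent ethyl replicates 1 to 4. Replicates 1 and 2 were high and replicates 3 and 4 were low, as in the HFD group. The log2 fold change of Fos was -0.17 (SE 1.32, adjusted p = 0.9997 by edgeR).

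Junb was at 1364, 762, 314 and 44.0 CPM in the icosapent ethyl mice, and Egr1 at 681, 464, 279 and 34.0 CPM. Replicate 3, which was low in Fos, had an intermediate level of both genes, and the log2 fold changes were -0.25 for Junb (SE 1.21) and -0.39 for Egr1 (SE 0.94 by edgeR). Jun was at 638, 572, 636 and 721 CPM, with a log2 fold change of -0.08 (SE 0.09 by edgeR), the most precisely measured of the 10. Egr2 was at 8.07, 4.11, 4.28 and 1.62 CPM and Egr3 at 4.78, 1.001, 3.23 and 2.29 CPM. Egr3 had the lowest p-value of the 10 genes, with a fold change of -0.82 on the log2 scale (SE 0.44, adjusted p = 0.9997 by edgeR), and 2 of the 4 icosapent ethyl mice lay below all HFD mice.

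Fosb and the NR4A genes also varied widely within the icosapent ethyl group. Fosb was at 225, 23.2, 237 and 19.5 CPM in replicates 1 to 4. Nr4a1 was at 1731, 146, 2043 and 412 CPM. Nr4a2 was at 156, 5.51, 851 and 41.3 CPM, a 154-fold range among 4 mice on the same diet, and Nr4a3 at 134, 66.3, 611 and 191 CPM. Replicate 3 was highest in all 4 of these genes, and replicate 2, which had the highest Fos of the group, was lowest in the 3 NR4A genes. With this spread the log2 fold changes were -0.16 for Fosb (SE 0.92), 0.34 for Nr4a1 (SE 0.995), 1.11 for Nr4a2 (SE 1.25) and 0.29 for Nr4a3 (SE 0.61), none of them larger than its error, and the signs of all 4 turned when 1 mouse was left out.

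In both HFD groups the mice with high Fos and Junb carried the numbers 1 and 2. What a number marks is not given in the sources used here, and its part in the result was not tested. A fit with the replicate number as a block, over the HFD and icosapent ethyl mice, called none of the 10 genes. Between the same groups all 12 chromaffin markers had fold changes above 0 (median 0.53 on the log2 scale). The 8 mesothelial and capsule markers had a median of 1.52, with 4 of the 8 past an unadjusted p below 0.05. Their sums overlapped, at 89.3 to 107.6 CPM in the icosapent ethyl mice and 73.8 to 100.8 CPM in the HFD mice. No marker of these lists was called by edgeR, and their part in the differences of the 10 genes was not tested.

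The comparison of icosapent ethyl with LFD shares its LFD mice with the first comparison. The log2 fold changes were 4.18 for Fos (SE 1.06, adjusted p = 0.224), 3.63 for Junb (SE 0.86, adjusted p = 0.202) and 2.14 for Egr1 (SE 0.82, adjusted p = 0.319 by edgeR). None of the 10 genes was called by edgeR, as for all 15935 genes tested (0%). These 3 genes were those with an unadjusted p below 0.05, beside 14.0% of all genes. DESeq2 called 2 of them, Fos (adjusted p = 0.00419) and Junb (adjusted p = 0.00357), beside 2.69% of the 15481 genes it tested. No member separated the groups, beside 7.73% of all genes, since icosapent ethyl replicate 4 lay among the LFD mice in Fos, Junb and Egr1. The other 7 genes had log2 fold changes from -0.87 (Nr4a3, SE 0.77) to 0.30 (Egr2, SE 0.66), with 0.23 for Jun (SE 0.12, adjusted p = 0.399 by edgeR), and the median of the 10 genes was 0.26. Without LFD replicate 2 the value of Jun was 0.15, that of Egr2 -0.045 and that of Egr3 -0.27. Those of Fosb, Nr4a1 and Nr4a2 turned from 0.26, 0.26 and 0.23 to -0.15, -0.12 and -0.16, and that of Nr4a3 was -1.22. Among the other early-response genes, 6 of 39 passed unadjusted and none was called. The 4 lowest p-values were those of Gadd45g, with a fold change of 1.39 on the log2 scale (SE 0.25, adjusted p = 0.153 by edgeR) and no overlap between the groups, Btg2 (2.29), Plk2 (0.57) and Zfp36 (1.63), which encodes a protein that promotes decay of AU-rich mRNAs. The 12 chromaffin markers summed to 4654 to 9075 CPM in the icosapent ethyl mice, against 5239 to 18553 CPM in the LFD mice, and their fold changes, none above 0, had a median of -0.71 on the log2 scale. The 8 macrophage markers summed to 341 to 368 CPM, against 426 to 618 CPM, with a median of -0.48 and 1 above 0. The 8 mesothelial and capsule markers had a median of 1.06, and 6 of them passed an unadjusted p below 0.05. Their sums overlapped, at 89.3 to 107.6 CPM in the icosapent ethyl mice and 72.8 to 120.0 CPM in the LFD mice. No marker of these lists was called, and their part in the differences of the immediate-early genes was not tested. In icosapent ethyl versus HFD, where none of the 39 passed unadjusted, the lowest p-values were those of Arc, Dusp4, Myc and Apold1, with log2 fold changes of -0.78, -0.61, -0.54 and -0.60.

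**Figure D2:**
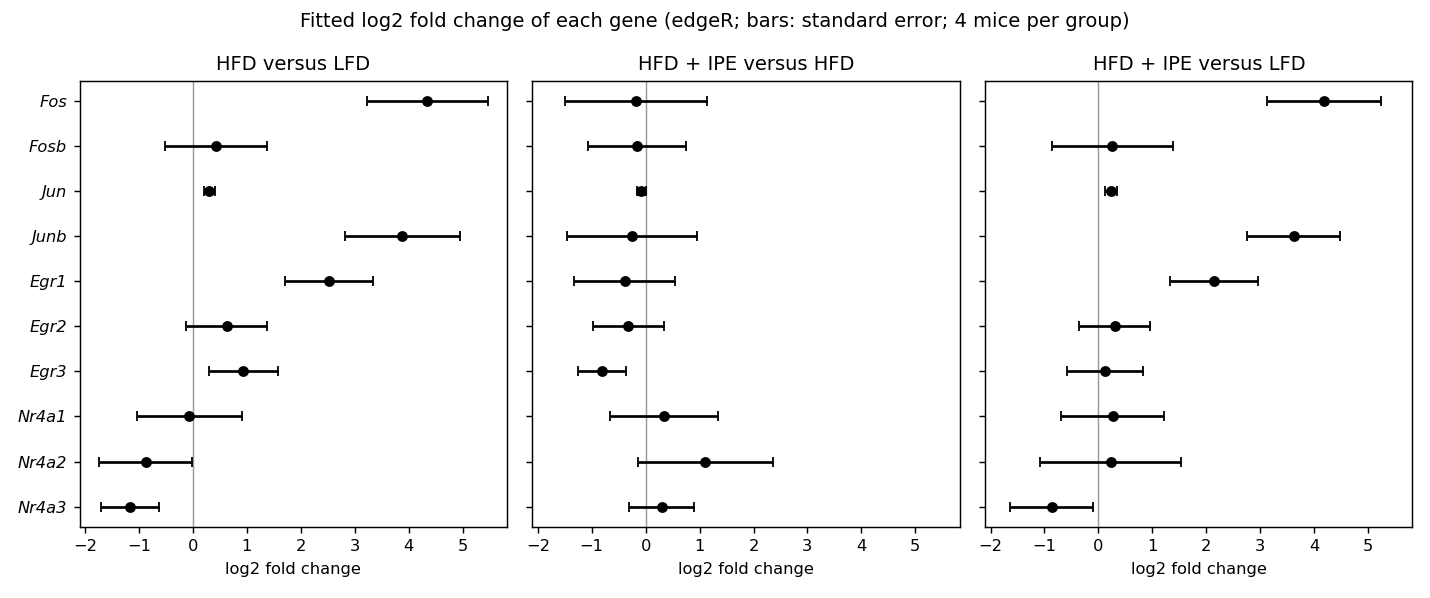
Fitted log2 fold changes of the 10 genes in the 3 comparisons (points), with standard errors as bars, from 4 mice per group. Fos, Junb and Egr1 lie far to the right in both comparisons with LFD, at 4.35, 3.88 and 2.53 for HFD and at 4.18, 3.63 and 2.14 for icosapent ethyl (IPE), with wide bars, and Jun has the shortest bars in all 3.

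The spread between mice of the same group set these genes apart from most of the transcriptome. The pooled SD within groups, on the log2 CPM scale, was 2.27 for Nr4a2, 2.17 for Fos, 2.11 for Fosb and 2.01 for Junb, against a median of 0.28 over the 16262 genes that passed the filter across the 12 mice. Only 4 genes of the table had a higher SD than Nr4a2. The SD was 1.88 for Nr4a1, 1.65 for Egr1, 1.25 for Egr2, 1.21 for Egr3 and 1.18 for Nr4a3, so that 9 of the 10 genes lay above the 99th percentile of all genes (1.17). Without LFD replicate 2, 6 of the 10 did. Jun was the exception, with an SD of 0.15, below the median of all genes.

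The SDs are also given by group. In the LFD mice, Fos and Junb had SDs of 0.33 and 0.34, near the typical gene, whereas Fosb, Nr4a2, Nr4a1 and Egr3 had SDs of 2.76, 2.09, 1.96 and 1.81 in the same 4 mice. These 4 SDs rested on LFD replicate 2, and were 0.25, 0.19, 0.62 and 0.45 over the other 3 LFD mice. In the HFD mice, Fos and Junb had SDs of 2.75 and 2.69, and Nr4a3 and Egr3 had SDs of 0.56 and 0.52. In the icosapent ethyl mice, Nr4a2 had the highest SD, 3.07. The difference in spread between groups was not tested. LFD replicate 2 was the lowest of the 12 mice in 7 of the 10 genes and among the lowest 3 in all 10, and no other mouse was among the lowest 3 in more than 7.

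**Figure D3:**
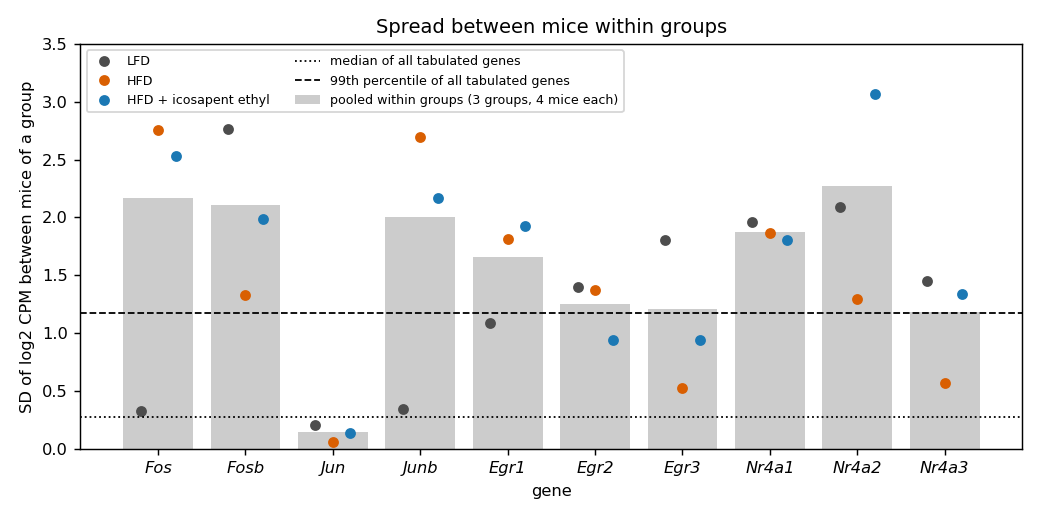
SD of log2 CPM between the 4 mice of each group (points) and pooled over the 3 groups (bars) for the 10 genes, with the median (0.28) and the 99th percentile (1.17) of all 16262 genes as lines. All genes but Jun have bars above the upper line, and the LFD points of Fos and Junb lie near the lower line.

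The genes did not vary as a single set. Of the 12 mice, 4 had Fos at or above 316 CPM and 8 had it at or below 28.1 CPM, with the gap between them covering 59.2% of the log2 range. Junb had a gap of 41.4% of its range, between 5 mice at or above 314 CPM and 7 at or below 69.4 CPM. The 4 mice with high Fos were HFD replicates 1 and 2 and icosapent ethyl replicates 1 and 2, and all 4 were among the 5 with high Junb, which icosapent ethyl replicate 3 joined. Because the mice fell into separate sets, no correlation coefficient of Fos or Junb with another single gene is given over all mice. Their 17 pairs are counted among the 45 tested below, and 5 of them had an adjusted exact permutation p below 0.05 for Pearson's r. These were Fos with Junb, Egr1 and Egr2, and Junb with Egr1 and Egr2.

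High Fos did not go with high Nr4a3. The ratio of Fos to Nr4a3 within a mouse was 3.88 and 1.37 in HFD replicates 1 and 2 and 2.36 and 4.99 in icosapent ethyl replicates 1 and 2. In the other 8 mice it was 0.013 to 0.104. The gap in Fos, 3.49 on the log2 scale, was wider than the whole range of Nr4a3, 3.24. The ratios thus separated these mice whatever their Nr4a3. Nr4a3 itself was at 66.3 to 232 CPM in the 4 mice with high Fos and at 78.6 to 626 CPM in the other 8. The lowest ratios, 0.013, 0.018 and 0.020, were those of LFD replicates 5, 6 and 7, in which Nr4a3 was at 551 to 626 CPM and Fos at 7.16 to 11.4 CPM. Icosapent ethyl replicate 3 had the second highest Nr4a3 (611 CPM) with Fos at 28.1 CPM. LFD replicate 2 was low in both. Crem, one of the other early-response genes, was at 114 and 121 CPM in HFD replicates 1 and 2. It was at 77.0 and 40.8 CPM in icosapent ethyl replicates 1 and 2 and at 52.0 CPM in LFD replicate 2. In the other 7 mice Crem was at 546 to 1301 CPM. The 4 mice with high Fos were thus 4 of the 5 mice with low Crem. This pattern was not particular to Crem. The same 5 mice had Maff at 3.74 to 14.3 CPM, against 80.7 to 178 CPM in the other 7. They had Fosl1 at 0.105 to 1.63 CPM, against 7.35 to 50.7 CPM. Other early-response genes went the other way. In the 4 mice with high Fos, Dusp1 was at 148 to 266 CPM and Zfp36 at 111 to 176 CPM. In the other 8 mice Dusp1 was at 29.9 to 55.3 CPM and Zfp36 at 18.0 to 49.8 CPM. Crem, Maff, Fosl1, Dusp1 and Zfp36 were named here for these patterns and not by their p-values. How many genes of the list share each pattern was not counted.

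**Figure D4:**
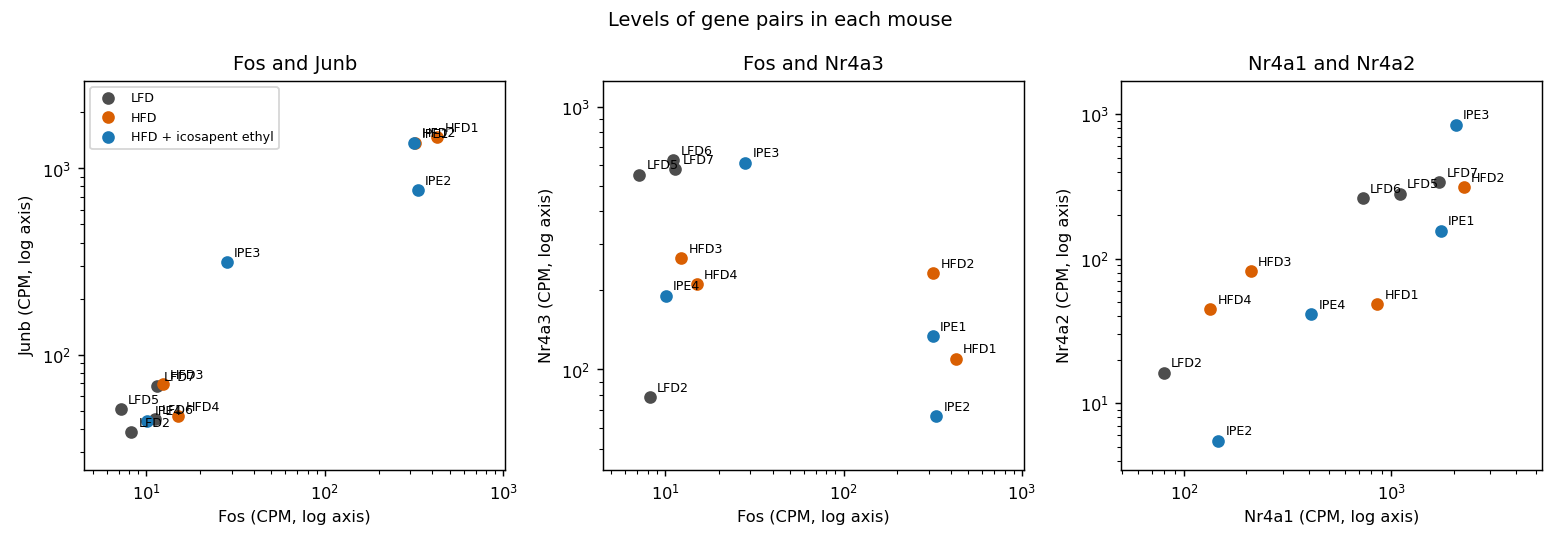
CPM of Fos against Junb, Fos against Nr4a3 and Nr4a1 against Nr4a2 in each of the 12 mice (log axes, colours for groups, labels for group and replicate, IPE for icosapent ethyl). Fos and Junb are high in the same mice, the 4 mice with Fos at or above 316 CPM have Nr4a3 between 66.3 and 232 CPM, and Nr4a1 and Nr4a2 tend to be high in the same mice, with HFD replicate 1 as an exception (856 CPM of Nr4a1 and 48.4 CPM of Nr4a2).

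Co-variation of the remaining 8 genes was measured over the 12 mice after subtraction of the group means, with p-values from all 13824 exact permutations within groups and adjustment over all 45 pairs of the 10 genes. Of the 28 pairs among these 8 genes, 12 had an adjusted p below 0.05 for Pearson's r and 9 for Spearman's rho, and 27 had r above 0. The 12 pairs became 3 without LFD replicate 2, 5 without HFD replicate 2 and 8 to 12 when each other mouse was left out. The widest gap of Fosb (40.2% of its range) and that of Egr3 (41.0%) set LFD replicate 2 apart from the other 11 mice, and r of Fosb with Egr3 was 0.90 over all mice and 0.75 without it. Fosb and Nr4a1 had the highest r of the 28 pairs (r = 0.93, rho = 0.90, exact permutation p = 0.000506 and 0.000579, adjusted p = 0.00760 and 0.00868). Their r was 0.95 without the 2 mice farthest from the median of Fosb and at least 0.91 with any 1 mouse left out. By rho, Nr4a2 was closer to Nr4a1 (0.95) and to Fosb (0.93) than these genes were to each other.

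Within the NR4A family, Nr4a1 and Nr4a2 had r = 0.87 and rho = 0.95 (adjusted exact permutation p = 0.0116 and 0.00651), and r = 0.74 without the 2 farthest mice. Nr4a2 and Nr4a3 had r = 0.87 and rho = 0.73 (adjusted exact permutation p = 0.0339 and 0.0508), and r = 0.72 without the 2 farthest mice. Nr4a1 and Nr4a3 had r = 0.63 (adjusted exact permutation p = 0.124), which fell to 0.17 without the 2 farthest mice and therefore rested on them.

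Egr1 and Egr2 had r = 0.87 and rho = 0.78 (adjusted exact permutation p = 0.0103 and 0.0282), and r = 0.82 without the 2 farthest mice. Egr2 also passed with Fosb (r = 0.81, adjusted exact permutation p = 0.0103), Nr4a1 (r = 0.79, 0.0379) and Egr3 (r = 0.71, 0.0498). Egr1 also passed with Fosb (r = 0.68, adjusted exact permutation p = 0.0368). Egr3 was closer to Fosb and Nr4a1 than to Egr1. With Nr4a2, Egr3 had r = 0.78, which fell to 0.48 without the 2 farthest mice. For Egr3 and Nr4a1, r was 0.87 and rho 0.79 (adjusted exact permutation p = 0.00977 and 0.0215), with r = 0.77 without the 2 farthest mice and at least 0.84 with any 1 mouse left out. For Egr3 and Egr1, r was 0.45 (adjusted exact permutation p = 0.157). It was 0.66 without the 2 mice farthest from the median of Egr1 and 0.29 without LFD replicate 2. Whether these correlations differ from each other was not tested. Jun was in no pair that passed, and Egr1 and Nr4a3 had r = 0.05.

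**Figure D5:**
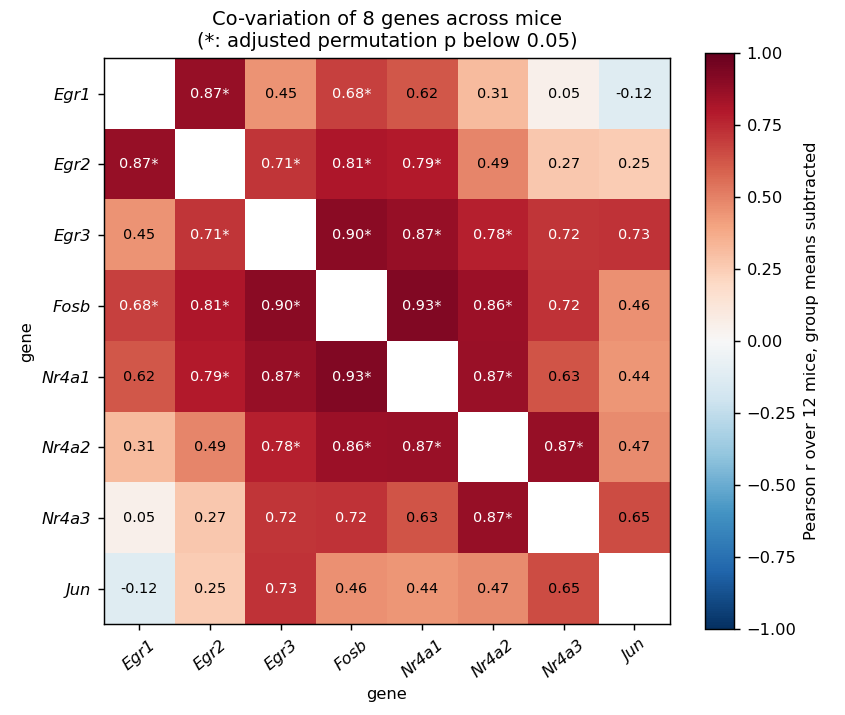
Pearson's r of each pair of 8 genes over 12 mice after subtraction of the group means, with stars at an adjusted exact permutation p below 0.05. Fosb, Nr4a1, Nr4a2 and Egr3 have r of 0.78 to 0.93 with each other. Egr2 has stars with Egr1 (0.87), Fosb (0.81), Nr4a1 (0.79) and Egr3 (0.71), and Egr1 has a star with Fosb (0.68). Egr1 is not close to Nr4a3 (0.05), and Jun has no star.

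The mean of the 10 genes, each centred within groups and scaled to an SD of 1, served to find other genes with the same pattern over the 12 mice. Of the 10 genes themselves, Jun (r = 0.43), Fos (0.47), Nr4a3 (0.58) and Junb (0.62) had r below 0.7 with this mean, so it followed mainly the other 6. Of 39 other early-response genes, 16 (41.0%) had r above 0.7 with this mean, against 3.94% of the 16262 genes of the table, and 13 did without LFD replicate 2. The closest were Csrnp1 (r = 0.95), Sik1 (0.94), a kinase induced by ACTH in adrenocortical cells, Gadd45b (0.92) and Dusp5 (0.90), a phosphatase of MAP kinases. Per1, a clock gene that is also an early-response gene, had r = 0.86. Of the 7 heat shock genes, 3 passed this limit, Hspa1a (0.88), Hspa1b (0.85) and Hsph1 (0.74). Hspa1a and Hspa1b are near-identical copies, and reads that match both were not examined. Of 14 clock genes, Per1 and Per2 passed, of 23 upstream genes Mef2d (0.71), and of 8 macrophage markers Adgre1 (0.74). None of the 14 steroidogenic genes, the 10 adrenocortical markers or the 12 chromaffin markers passed, and their median r was 0.09, 0.09 and -0.15.

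Outside these lists, genes with the highest r among those with a mean of at least 5 CPM included Ttc7b (r = 0.96), Cep120, Kif13a, Agbl5, Tbc1d31, Mphosph9, AU040320, Nedd4 and Neurl4 (r = 0.92). Nedd4, a ubiquitin ligase, was the most abundant of those named, at a mean of 755 CPM. These values are descriptions over 12 mice that share library, depth and dissection with the 10 genes.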

How the data were processed

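RNA of the adrenal cortex was sequenced from 12 mice, 1 library each, and groups and replicate numbers were taken from the labels. Raw counts per gene were deposited by the authors, who prepared stranded total RNA libraries, trimmed reads with cutadapt, aligned them with STAR to GRCm38 (GENCODE M12) and ran HTSeq 0.6.1p1 in reverse-strand mode. These raw counts (34785979 to 67295963 per mouse) were analysed as deposited, and symbols and exon lengths came from GENCODE M21. No column of fold changes was present. The 10 genes and the gene lists were chosen with earlier results of these data known. All 10 genes are named, with the 4 lowest p-values among the other early-response genes in each comparison and the 10 genes most like the mean of the members, of which 1 is not reported here.

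Genes were filtered with filterByExpr (minimum count 10), scaled by TMM and tested for each pair of groups with the quasi-likelihood test of edgeR 4.0.16 (R 4.3.3), with Benjamini-Hochberg adjustment over all genes and a threshold of 0.05. Standard errors were taken from the fold change and its F statistic. Log2 CPM used a prior count of 2. Pairs of genes were tested by exact permutation within groups. Code was tested on simulated data. DESeq2 1.42.0, other scalings, no filter, 1 fit of all mice, prior count 0.5, group means kept and leaving out each mouse were alternatives. The HFD and icosapent ethyl groups share replicate numbers 1 to 4, so the numbers were treated as pairs in a further fit. Deviations of same-numbered mice correlated at 0.24, 0.12, 0.34 and 0.63 over 16262 genes. HFD replicates 1, 2 and 3 correlated more closely with a mouse of another number. These were icosapent ethyl replicates 2 (0.60), 1 (0.44) and 4 (0.37). No 2 libraries were copies (lowest chi-square per degree of freedom 26.5 over 66 pairs). The p-values of a comparison set the difference between 2 groups against the spread between mice within them. Those of gene pairs set r or rho against permutations of the 12 mice within groups.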

Additional observations from a re-analysis of the deposited data

Results flagged for a closer look

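In 30 groups of 4 mice (10 genes in 3 groups), the gap between the extreme mouse and its nearest neighbour was set against the range of the group, and 2 groups passed Dixon's critical value for 4 values. Nr4a2 in HFD replicate 2 was at 314 CPM, with a gap of 0.862 of the range, above 3 mice at 44.95 to 82.1 CPM. Nr4a3 in LFD replicate 2 was at 78.6 CPM, with a gap of 0.863 of the range, below 3 mice at 551 to 626 CPM. Chance alone passes this limit in about 1 in 20 groups. The same LFD mouse was low in all 10 genes.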

How the results depend on the processing

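With DESeq2 in place of edgeR, members called were 3 in HFD versus LFD and 2 in icosapent ethyl versus LFD instead of 0, and genes called were 1965, 7 (icosapent ethyl versus HFD) and 417 instead of 230, 0 and 0. HFD versus LFD gave 84 genes with unscaled library totals and 556 with all 12 mice in 1 fit, which gave 2 genes in icosapent ethyl versus LFD. The cause of these differences was not tested. With 1 mouse left out, genes called in HFD versus LFD ran from 0 to 918 (918 when HFD replicate 1 was omitted, 78 when it was LFD replicate 2, and 0 for each other mouse), those in icosapent ethyl versus LFD from 0 to 1 (1 without icosapent ethyl replicate 2), and correlated pairs from 5 to 19 (17 of all 45 pairs with every mouse, a count that includes pairs with Fos or Junb, and 5 without LFD replicate 2), while members called stayed at 0 in all 3 comparisons. The fit with the replicate block called 0 genes and 0 members (696 genes at an unadjusted p below 0.05, against 221) and changed no other call. Under this pairing the log2 fold changes turned to 0.047 for Fos, 0.23 for Junb and -0.092 for Nr4a3. Directions that turned with 1 mouse left out were those of Fosb (-0.34 to 0.75) and Nr4a1 (-1.16 to 0.43) in HFD versus LFD. In icosapent ethyl versus HFD they were those of Fos (-0.71 to 0.57), Fosb (-0.65 to 0.61), Junb (-0.99 to 0.32), Egr1 (-0.88 to 0.28), Egr2 (-0.76 to 0.14), Nr4a1 (-0.16 to 1.44), Nr4a2 (-0.85 to 2.17) and Nr4a3 (-0.65 to 0.61). In icosapent ethyl versus LFD they were those of Fosb (-0.24 to 0.62), Egr2 (-0.14 to 1.06), Egr3 (-0.27 to 0.58), Nr4a1 (-0.24 to 0.78) and Nr4a2 (-1.73 to 0.64). Fos, Junb, Egr1 and Jun were above LFD in both comparisons under every setting run. Leaving out each mouse for the counts of early-response genes with r above 0.7 (13 to 18) and of members above 99% of genes in spread (6 to 9) was chosen after seeing the data. Counts were at least 39 in every mouse for 9 of the 10 genes, and the lowest count of Egr3 was 13.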
